A study of Mus musculus with 8 samples.

Results

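The 10 genes described here report on signalling from fibroblast growth factors (FGFs) through the kinase ERK, and on the step that takes mouse pluripotent cells out of the naive state. They are the ligands Fgf4 and Fgf5, the feedback inhibitors Dusp6, Spry2 and Spry4, the transcription factors Etv4, Etv5 and Egr4, and the primed-state factors Otx2 and Pou3f1. They were taken by symbol from the 24421 genes of the count tables, and all 10 were present and passed the filter on low counts, which left 15458 genes. RNA was measured in a hybrid mouse embryonic stem cell line, CAST/Ei x 129/Sv/Jae, in 4 groups of 2 libraries. The 6A day 14 group carried the HNRNPK 6A mutation and had been differentiated without leukemia inhibitory factor (LIF), first as suspended embryoid bodies and then on gelatin. The WT day 14 group was wild type and treated in the same way. The 6A day 0 and WT day 0 groups were undifferentiated cells of those genotypes, kept in LIF on irradiated fibroblast feeders that were removed at harvest. The residues changed in 6A, and whether each genotype was 1 clone or several, are not stated in the labels. The design text of the series names day 7 for the differentiated cells, while the title, cell type and protocol of each sample name day 14, which is used here.

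FGF4 is the main ligand that mouse embryonic stem cells make for themselves. It binds FGF receptors, which act through the adaptor GRB2, RAS, RAF and MEK to activate ERK. ERK in turn raises genes that damp the pathway: DUSP6 is a phosphatase that removes phosphate from ERK, and Sprouty proteins block the path to ERK from the receptor. ETV4 and ETV5 are ETS-family factors induced by ERK, and EGR4 belongs to a family of zinc finger factors that respond early to it. LIF holds cells in the naive state against this signal. When they leave it, OTX2 and POU3F1 (also called OCT6) rise and FGF5 marks the primed, epiblast-like state. In later cultures OTX2 is also a factor of anterior neural tissue and of visceral endoderm, and POU3F1 is a factor of neural and glial precursors.

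The reference sequences printed here belong to Fgf4, Fgf5 and Egr4, an abundant ligand and the pair of genes that were called lower in 6A at day 0. Fgf4 is known for an enhancer in its 3′ untranslated region, bound in stem cells by SOX2 and OCT4. A search of annotated transcripts for the HMG-box letters CTTTGTT, a gap of 3 bases and the POU letters ATGCTAAT gave a match in Fgf4 and in no other of 55450 genes (0.0018% with a match). The letters were written for Fgf4 and only the transcript strand was read, so the match is no test of how particular the site is. The match lies at chr7:144864388-144864417 of mm10, plus strand, 1453 bases after the stop codon. The capitals mark the HMG and then the POU letters.

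Fgf4 3′ untranslated region: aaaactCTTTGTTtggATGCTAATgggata

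The promoters of Fgf5 and Egr4 are from RefSeq (GRCm38.p6) and run from 250 bases before to 50 bases after the annotated start. The Fgf5 promoter is chr5:98253934-98254233, plus strand, and its capitals mark TTCCGG, which is the ETS core CCGGAA read on the other strand, and a TATAAA. Counted from the annotated start, the ETS core begins at -241 and the TATAAA at 35, after that start. The Egr4 promoter is chr6:85513540-85513839, minus strand, and held none of the motifs as spelled in the search. Its letters tatataa are another spelling, which was not searched.

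Fgf5 promoter: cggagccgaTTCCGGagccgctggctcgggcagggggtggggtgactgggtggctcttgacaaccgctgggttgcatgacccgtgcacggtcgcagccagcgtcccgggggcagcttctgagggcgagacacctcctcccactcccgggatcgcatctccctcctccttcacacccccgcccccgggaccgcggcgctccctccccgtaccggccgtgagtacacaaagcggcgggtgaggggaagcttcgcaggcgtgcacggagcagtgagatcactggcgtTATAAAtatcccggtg
Egr4 promoter: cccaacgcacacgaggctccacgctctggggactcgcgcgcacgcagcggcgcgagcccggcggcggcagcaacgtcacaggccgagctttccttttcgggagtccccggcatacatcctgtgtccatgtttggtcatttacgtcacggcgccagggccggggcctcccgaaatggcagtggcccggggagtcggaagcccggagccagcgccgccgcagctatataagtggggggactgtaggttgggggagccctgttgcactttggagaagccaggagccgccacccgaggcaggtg

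Both windows were rich in G and C, at 68.3% for Fgf5 and 67.7% for Egr4, against a median of 52.7% over all promoters. Fgf5 held 29 CpG dinucleotides and Egr4 held 30, against a median of 7. In the table, 7 of the 10 genes had an entry, with 11 promoters in all. On either strand, the ETS core CCGGAA occurred in 2 of the 11, those of Fgf5 and Spry2, and in 14.9% of all 32851 promoters. The letters TATAAA occurred in 2 of the 11, those of Fgf5 and Otx2, and in 13.6% of all. The Capicua octamer (TGAATGAA or TGAATGGA, 2.47% of all), the CArG box (1.63%) and the cyclic AMP response element TGACGTCA (1.79%) occurred in none of the 11. These are matches of letters and say nothing of binding.

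Library totals ran from 8146684 to 15540163 counts, so 3 counts in a library correspond to between 0.193 and 0.368 CPM (counts scaled to library size). Hnrnpk RNA was 348 and 385 CPM in 6A libraries against 495 and 474 in WT libraries at day 14, and 527 and 538 CPM in 6A libraries against 880 and 709 in WT libraries at day 0. It was lower in 6A at both days (-0.40 ± 0.12 on the log2 scale at day 14, with an edgeR adjusted p of 0.043, and -0.58 ± 0.12 at day 0, with 0.040). The 8 stem cell markers summed to 549 and 562 CPM in 6A and 438 and 410 in WT at day 14, and to between 4400 and 4600 in the day 0 libraries. Pou5f1 differed between the WT day 0 libraries, with 199 and 546 CPM. Y-linked RNA (6 genes) summed to 43.4 and 46.9 CPM in 6A and 28.3 and 28.2 CPM in WT at day 0, and to at most 0.0966 CPM in any day 14 library, and 2 of the 6 genes were at 0 in every day 0 library. The 10 fibroblast and mesenchyme markers summed to 2080 and 1470 CPM in 6A and 1490 and 1370 in WT at day 0, where 2 of the 10 were called higher in 6A. All 10 fitted differences were above 0 there, with a median log2 fold change of 0.29 against 0.01 over all tested genes. The 4 Y-linked genes tested were also above 0, with a median of 0.73, and edgeR called 0 of them. The part of both lists in the day 0 results below was not tested.

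Values below are TMM-scaled CPM, with both libraries of a group given in order, and log2 fold changes carry their standard error. A gene is called when its Benjamini-Hochberg adjusted p over the 15458 genes, from the quasi-likelihood test of edgeR, is under 0.05. With 2 libraries against 2, an exact permutation test cannot go below p = 0.333 (two-sided), so the calls rest on a spread shared across genes. The labels call the libraries biological replicates but name no separate cultures, so the p-values measure only the spread between these samples. In bulk RNA, fewer cells that make a transcript and less of it per cell cannot be told apart.

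At day 14, 2 of the 10 genes were called between 6A and WT, Spry4 higher and Otx2 lower in 6A. At day 0, 2 of the 10 were called, Fgf5 and Egr4, both lower in 6A. The share of all tested genes called was 13.6% at day 14 (5.33% higher and 8.31% lower in 6A) and 1.58% at day 0 (1.06% higher and 0.518% lower). The count at day 14 is therefore near what the share over all genes gives, and the count at day 0 is above it, which describes genes that were chosen with results of these data known. The median log2 fold change of the 10 genes was 0.30 at day 14 and -0.18 at day 0, against 0.00 and 0.01 over all tested genes. On differentiation, day 14 against day 0, all 10 genes changed in 6A (3 higher, 7 lower) and 9 of 10 in WT (2 higher, 7 lower). Of all tested genes, 71.9% changed in 6A (35.4% higher, 36.6% lower) and 75.2% in WT (38.4% higher, 36.8% lower), so most genes of any kind changed on this step.

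**Figure D1:**
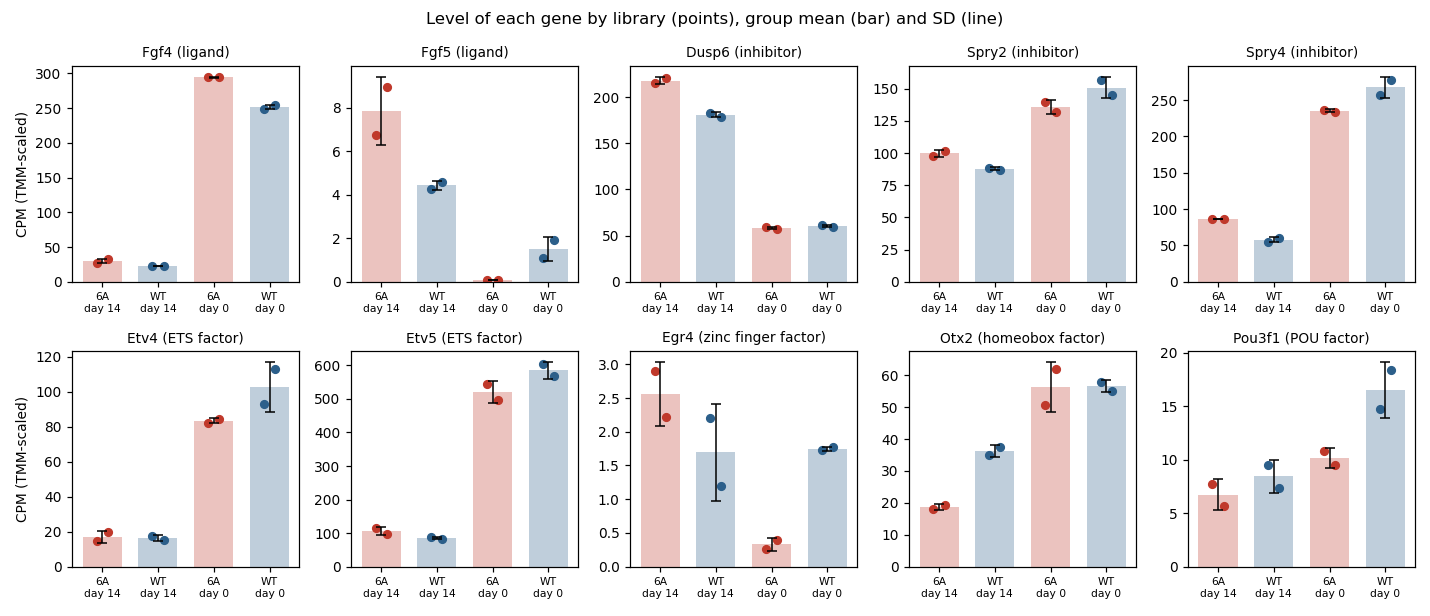
Level of each of the 10 genes in TMM-scaled CPM on a linear axis from 0, with a point for each library, a bar for the mean of the 2 libraries and a line for the SD. Fgf5 stands near 0 in 6A at day 0, and Otx2 is lower in 6A (18.0 and 19.4) than in WT (34.9 and 37.6) at day 14 while its day 0 groups overlap.

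Fgf4 (mm10, chr7:144847367-144865243, plus strand) was the more abundant ligand. It stood at 27.7 and 32.1 CPM in 6A and 22.7 and 23.1 CPM in WT at day 14, and at 295 and 294 CPM in 6A and 249 and 254 CPM in WT at day 0. Both 6A libraries were above both WT libraries at each day, and all day 14 libraries were far below all day 0 libraries. The difference between genotypes was not called, with a log2 fold change of 0.39 ± 0.12 at day 14 (edgeR adjusted p = 0.056) and 0.23 ± 0.11 at day 0 (edgeR adjusted p = 0.32). The day 14 value passed the threshold under 5 of 13 alternative settings, where the adjusted p ran from 0.029 to 0.35. On differentiation Fgf4 fell in both genotypes, by 3.30 ± 0.12 on the log2 scale in 6A (edgeR adjusted p = 5.6e-11) and by 3.45 ± 0.12 in WT (edgeR adjusted p = 5.1e-11).

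Fgf5 (chr5:98254184-98277030, plus strand) was low in every group and lowest in 6A cells at day 0. Its levels were 6.76 and 8.98 CPM in 6A and 4.29 and 4.59 CPM in WT at day 14, and 0.0855 and 0.0668 CPM in 6A and 1.11 and 1.91 CPM in WT at day 0. The day 0 values in 6A are 1 count in each library, below the floor of 3 counts, while the WT libraries had 9 and 27 counts. Over the group, 2 counts in 6A against 36 in WT gave a ratio of 0.0464 after scaling, with a 95% interval of 0.00541 to 0.180 that covers counting error only. Fgf5 was called lower in 6A at day 0 (edgeR adjusted p = 0.0075). The call was lost without the second WT day 0 library (adjusted p = 0.063), without the second 6A day 0 library (0.094) and when the 2 day 0 groups were fitted alone (0.077), in a range of 2e-04 to 0.094 over 13 alternatives.

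At day 14 the order of the genotypes for Fgf5 was the opposite, with both 6A libraries above both WT libraries. The log2 fold change was 0.82 ± 0.26, which did not pass (edgeR adjusted p = 0.052), and 6 of 13 alternatives called it. On differentiation Fgf5 rose in 6A, with 163 counts at day 14 against 2 at day 0 and a ratio of 105 (95% counting interval 28.6 to 874; edgeR adjusted p = 4.5e-08). It also rose in WT, with 95 counts at day 14 against 36 at day 0, a log2 fold change of 1.48 ± 0.32 (edgeR adjusted p = 0.00086). The rise was larger in 6A than in WT by 5.04 ± 0.70 on the log2 scale in the test of the genotype by day difference (edgeR adjusted p = 0.0015). That fitted value depends on the 2 reads of 6A at day 0 and is no bound, and its standard error is smaller than counting error alone would give.

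Dusp6 (chr10:99263231-99267489, plus strand), the phosphatase of ERK, moved against Spry2 and Spry4 on differentiation. It had 215 and 221 CPM in 6A and 183 and 179 CPM in WT at day 14, and 59.5 and 57.7 CPM in 6A and 61.0 and 59.2 CPM in WT at day 0. The genotypes overlapped at day 0 and did not at day 14. The 6A difference was 0.27 ± 0.10 at day 14 (edgeR adjusted p = 0.11) and -0.04 ± 0.11 at day 0 (edgeR adjusted p = 0.91). Dusp6 rose on differentiation by 1.90 ± 0.11 in 6A (edgeR adjusted p = 3.2e-09) and by 1.59 ± 0.11 in WT (edgeR adjusted p = 1.4e-08).

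Spry2 (chr14:105891947-105896819, minus strand), a Sprouty inhibitor of receptor signalling, changed least of the 3 inhibitors on differentiation. It had 98.1 and 102 CPM in 6A and 88.6 and 86.9 CPM in WT at day 14, and 140 and 132 CPM in 6A and 157 and 145 CPM in WT at day 0. The 6A libraries were above the WT libraries at day 14 and below them at day 0. Neither difference was called (0.19 ± 0.11 on the log2 scale at day 14, edgeR adjusted p = 0.30, and -0.15 ± 0.11 at day 0, edgeR adjusted p = 0.53). Spry2 fell on differentiation by 0.45 ± 0.11 in 6A (edgeR adjusted p = 0.0022) and by 0.78 ± 0.11 in WT (edgeR adjusted p = 1.9e-05).

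Spry4 (chr18:38586247-38601415, minus strand) was the only one of these 3 inhibitors called between the genotypes. It had 86.8 and 86.8 CPM in 6A and 55.4 and 60.5 CPM in WT at day 14, against 237 and 234 CPM in 6A and 257 and 278 CPM in WT at day 0. At day 14 the 6A libraries were higher and at day 0 they were lower, with no overlap at either day. Spry4 was called higher in 6A at day 14, by a log2 fold change of 0.58 ± 0.11 (1.5-fold, edgeR adjusted p = 0.0032), and stayed called under all 13 alternatives that use all reads (0.52 to 0.65, highest adjusted p = 0.049). The day 0 difference was -0.18 ± 0.11 (edgeR adjusted p = 0.42).

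Both genotypes lost Spry4 RNA on differentiation, by 1.44 ± 0.11 on the log2 scale in 6A (edgeR adjusted p = 5.2e-08) and by 2.21 ± 0.11 in WT (edgeR adjusted p = 1e-09). The difference between these falls, 0.76 ± 0.15, was called (edgeR adjusted p = 0.012). It was lost without the first WT day 14 library (adjusted p = 0.067), the first 6A day 14 library (0.055) or the second 6A day 0 library (0.066), within 0.0011 to 0.067 over 12 alternatives.

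**Figure D2:**
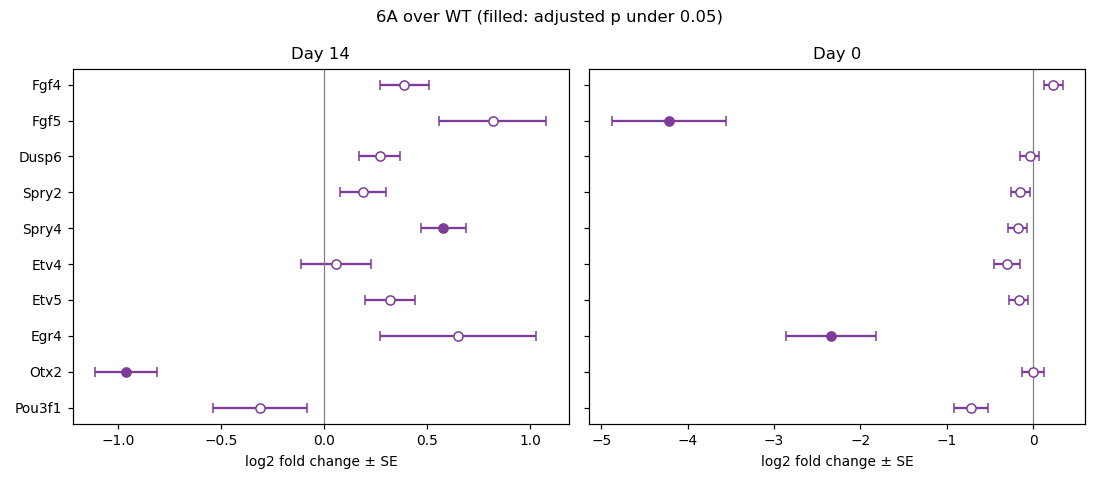
Log2 fold change of 6A over WT for each of the 10 genes at day 14 (left) and day 0 (right), with lines for the standard error derived from the edgeR F statistic and filled points for an adjusted p under 0.05. The scales of the panels differ. The filled points are Spry4 (0.58) and Otx2 (-0.96) at day 14, and Fgf5 (-4.22) and Egr4 (-2.34) at day 0, and the fitted value of Fgf5 rests on 2 reads in 6A. The line of Fgf5 at day 0 is shorter than counting error alone would give.

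Etv5 (chr16:22381309-22439719, minus strand) was the most abundant of the 10 genes per length in undifferentiated cells. Divided by the length of its exons, its mean level was 127 CPM per kb in 6A and 143 CPM per kb in WT at day 0, above Fgf4 at 92.0 in 6A and 78.6 in WT. It had 115 and 98.5 CPM in 6A and 87.5 and 83.2 CPM in WT at day 14, and 544 and 497 CPM in 6A and 604 and 568 CPM in WT at day 0. Its 6A libraries were the higher at day 14 and the lower at day 0, without overlap. Neither difference was called (0.32 ± 0.12, edgeR adjusted p = 0.093 at day 14, and -0.17 ± 0.11, edgeR adjusted p = 0.48 at day 0), and the day 14 difference was called under 2 of 13 alternatives. Etv5 fell by 2.29 ± 0.12 in 6A (edgeR adjusted p = 1.5e-09) and by 2.78 ± 0.12 in WT (edgeR adjusted p = 2.4e-10).

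Etv4 (chr11:101769742-101785371, minus strand), the paralog of Etv5, fell with it. It had 14.5 and 19.6 CPM in 6A and 17.4 and 15.3 CPM in WT at day 14, which overlap, and 82.3 and 84.6 CPM in 6A and 92.8 and 113 CPM in WT at day 0, which do not. The difference was 0.06 ± 0.17 at day 14 (edgeR adjusted p = 0.86) and -0.30 ± 0.15 at day 0 (edgeR adjusted p = 0.33). Etv4 fell by 2.29 ± 0.16 in 6A (edgeR adjusted p = 2.6e-08) and by 2.66 ± 0.17 in WT (edgeR adjusted p = 5.5e-09).

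Egr4 (chr6:85511121-85513589, minus strand) was near the limit of detection. It had 2.90 and 2.22 CPM in 6A and 2.20 and 1.19 CPM in WT at day 14, and 0.257 and 0.401 CPM in 6A and 1.73 and 1.77 CPM in WT at day 0. The counts behind the day 0 values were 3 and 6 in 6A and 14 and 25 in WT, so the ratio of 0.193 had a 95% counting interval of 0.0820 to 0.404. Egr4 was called lower in 6A at day 0 (log2 fold change -2.34 ± 0.52, edgeR adjusted p = 0.042). Of the 8 fits that each left out 1 library, only that without the first WT day 0 library kept the call, and the adjusted p was 0.078 with DESeq2 and 0.14 with the day 0 groups alone, in a range of 0.012 to 0.23.

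At day 14 the Egr4 difference was 0.65 ± 0.38 and was not called (edgeR adjusted p = 0.31). Egr4 rose in 6A on differentiation, by 2.89 ± 0.49 (edgeR adjusted p = 0.00011), with 53 counts at day 14 against 9 at day 0 (ratio 7.58, 95% counting interval 3.71 to 17.5). In WT it had 34 counts at day 14 against 39 at day 0 and was not called (-0.11 ± 0.40, edgeR adjusted p = 0.82). The test of the genotype by day difference gave 2.99 ± 0.65 (edgeR adjusted p = 0.018), which was lost without the first 6A day 0 library (adjusted p = 0.057), the first 6A day 14 library (0.079) or the second WT day 14 library (0.088), within 0.0034 to 0.088 over 12 alternatives.

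Otx2 (chr14:48657677-48673819, minus strand) had the largest called difference between the genotypes at day 14 among the 10 genes. It had 18.0 and 19.4 CPM in 6A and 34.9 and 37.6 CPM in WT at day 14, and 50.8 and 62.0 CPM in 6A and 58.0 and 55.2 CPM in WT at day 0. The day 0 groups overlap, and at day 14 both 6A libraries lie well below both WT libraries. Otx2 was called lower in 6A at day 14 (log2 fold change -0.96 ± 0.15, edgeR adjusted p = 0.00058), in all 13 alternatives that use all reads (-1.02 to -0.90, highest adjusted p = 0.014). At day 0 the difference was 0.00 ± 0.13 (edgeR adjusted p = 1).

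Otx2 fell on differentiation by 1.59 ± 0.14 in 6A (edgeR adjusted p = 2.5e-07) and by 0.64 ± 0.14 in WT (edgeR adjusted p = 0.00076). The difference between them, -0.96 ± 0.20, was called (edgeR adjusted p = 0.013). It was lost without the first 6A day 14 library (adjusted p = 0.079), the second 6A day 0 library (0.085) or the second WT day 14 library (0.084), within 0.0065 to 0.085 over 12 alternatives. Exons of the antisense gene Otx2os1 share 154 bases with Otx2, and its own counts were 0 to 13 per library. The labels do not state whether reads were counted by strand.

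Markers of the tissues that make OTX2 did not all move the way Otx2 did. The 10 neural markers summed to 104 and 84.1 CPM in 6A and 285 and 290 CPM in WT at day 14, with 9 of 10 called lower in 6A and 1 at 0 in each 6A library (Pou3f2 in the first, Hes5 in the second). The 8 visceral endoderm markers summed to 271 and 296 CPM in 6A and 209 and 188 CPM in WT, with 2 of 8 called higher in 6A and none at 0. Fitted differences were above 0 for 5 of the 8 and below 0 for 3. The higher sum came mostly from Cubn, with a mean of 105 CPM in 6A and 20.1 CPM in WT. Afp had means of 93.2 and 93.6 CPM, Ttr 31.8 and 38.8 CPM, and Foxa2 6.03 and 11 CPM, in the same order. The 6 cardiac markers summed to 219 and 211 CPM in 6A and 1300 and 1490 CPM in WT, and the 6 blood markers to 79.5 and 81.4 CPM in 6A and 2.09 and 1.66 CPM in WT, with none at 0. These marker sums differed between the genotypes at day 14, and their part in the values of Otx2, Spry4 and the other genes at day 14 was not tested.

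Pou3f1 (chr4:124656807-124660655, plus strand) was the lower of the primed-state factors. It had 7.73 and 5.70 CPM in 6A and 9.51 and 7.35 CPM in WT at day 14, which overlap, and 10.8 and 9.48 CPM in 6A and 14.7 and 18.4 CPM in WT at day 0, which do not. The difference was -0.31 ± 0.23 at day 14 (edgeR adjusted p = 0.43) and -0.72 ± 0.20 at day 0 (edgeR adjusted p = 0.097), and 2 of 13 alternatives called the day 0 difference. Pou3f1 fell by 0.59 ± 0.22 in 6A (edgeR adjusted p = 0.028) and by 1.00 ± 0.21 in WT (edgeR adjusted p = 0.00071). The call in 6A was lost with DESeq2 (adjusted p = 0.11), without the first 6A day 0 library (0.12) and without the second 6A day 14 library (0.22). Pou3f1 shares 330 exon bases with the antisense gene Gm2164, which has no row in the tables.

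**Figure D3:**
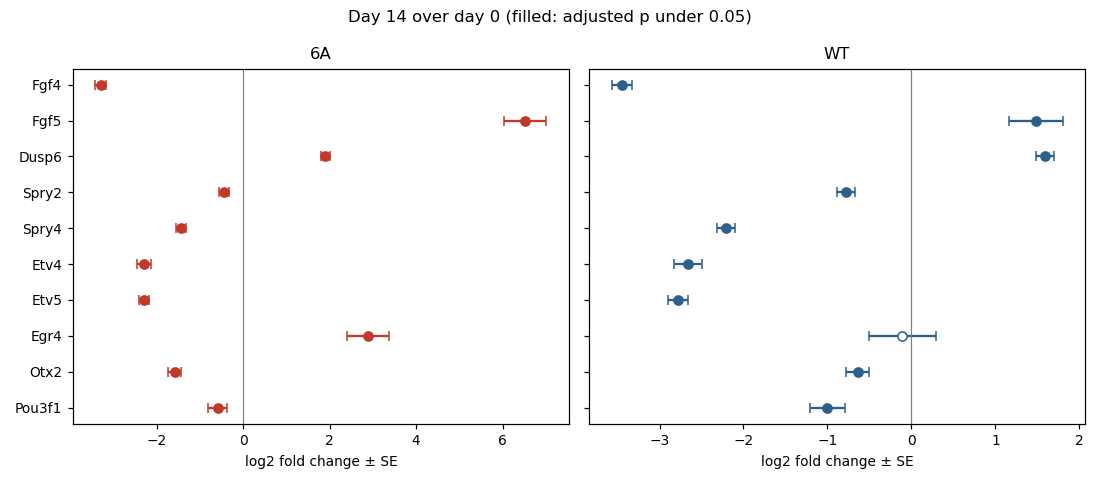
Log2 fold change of day 14 over day 0 for the 10 genes in 6A (left) and WT (right), with lines for the standard error and filled points for an edgeR adjusted p under 0.05. The scales of the panels differ. Fgf5 and Dusp6 lie above 0 in both genotypes, Egr4 lies above 0 in 6A (2.89) and is not called in WT (-0.11), and the other 7 lie below 0 in both. The line of Fgf5 in 6A is shorter than counting error alone would give.

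The change in the genotype difference between the days was called for 4 of the 10 genes, Fgf5, Egr4 and Spry4 upward and Otx2 downward, where 4.74% of all tested genes were called (1.4% upward, 3.34% downward). For the other 6 it was not called, with fitted values of 0.16 for Fgf4, 0.30 for Dusp6, 0.34 for Spry2, 0.37 for Etv4, 0.41 for Pou3f1 and 0.49 for Etv5. The adjusted p closest to the threshold was that of Etv5 (0.49 ± 0.16, edgeR adjusted p = 0.11). Thus 9 of the 10 fitted values were above 0, and Otx2 was the exception. The median was 0.39 for the 10 genes and -0.01 over all tested genes. These 10 genes were chosen with results of these data known. The upward shift was not particular to them. The pathway and pluripotency lists read below had medians from -0.07 (other feedback inhibitors) to 0.56 (naive genes, 11 of 13 above 0). Other formative and primed genes had 0.45 and other FGF ligands 0.39.

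Per length, the order of the mean levels in 6A at day 14 was Dusp6 (69.6 CPM per kb), Spry2 (47.9), Etv5 (26.1), Spry4 (18.3), Fgf4 (9.36), Etv4 (5.48), Otx2 (4.43), Fgf5 (3.15), Pou3f1 (1.74) and Egr4 (1.19). In WT at day 14 it was Dusp6 (57.8), Spry2 (42.0), Etv5 (20.8), Spry4 (12.2), Otx2 (8.60), Fgf4 (7.17), Etv4 (5.28), Pou3f1 (2.19), Fgf5 (1.78) and Egr4 (0.787). Otx2 stood above Fgf4 and Etv4 in WT cultures and below both in 6A cultures. At day 0, in contrast, Etv5, Fgf4 and Spry2 led in both genotypes, with Spry2 at 65.2 CPM per kb in 6A and 72.4 in WT.

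The other genes of the pathway were read from lists of the same kind. Of 10 further FGF ligands, 2 were called higher and 1 lower in 6A at day 14. Fgf8, a ligand of gastrulation, had 7.63 ± 1.5 CPM in 6A and 2.38 ± 0.569 CPM in WT (SD, n = 2 each), higher by 1.71 ± 0.30 on the log2 scale (edgeR adjusted p = 0.0018). Fgf10 was higher by 0.54 ± 0.16 (edgeR adjusted p = 0.034). Fgf15 had 3.77 ± 0.547 CPM in 6A and 12.6 ± 1.76 CPM in WT (-1.73 ± 0.23, edgeR adjusted p = 0.00026). At day 0 the only ligand of the 10 called was Fgf17, with 20.9 ± 3.63 CPM in 6A and 45.4 ± 1.59 CPM in WT (-1.12 ± 0.16, edgeR adjusted p = 0.0034).

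Of 10 receptors and co-receptors, 2 were called higher and 2 lower in 6A at day 14. At day 0 edgeR called 0 of them, as did DESeq2, with 0 at an unadjusted p under 0.05. Fgfr3 had 31.6 ± 0.281 CPM in 6A and 70.9 ± 5.73 CPM in WT (-1.17 ± 0.18, edgeR adjusted p = 6e-04), and Fgfr2 had 102 ± 7.35 CPM in 6A and 148 ± 2.54 CPM in WT (-0.54 ± 0.11, edgeR adjusted p = 0.005). The co-receptors Klb, which serves the endocrine FGFs, and Sdc4, a heparan sulfate carrier, were higher by 2.14 ± 0.39 (edgeR adjusted p = 0.0022) and 0.58 ± 0.12 (edgeR adjusted p = 0.0052). Of 19 RAS-ERK transducers, 1 was called at each day, with 1 at day 14 and 3 at day 0 at an unadjusted p under 0.05, and 0 were called at day 14 without the first 6A, the second 6A or the first WT library of that day. The scaffold Ksr1 was lower in 6A at day 14 (-0.56 ± 0.14, edgeR adjusted p = 0.019), and the docking protein Gab1 was higher in 6A at day 0, with 459 ± 35.0 CPM against 288 ± 17.4 CPM in WT (0.67 ± 0.11, edgeR adjusted p = 0.0096).

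Of 13 other feedback inhibitors, 3 were called higher and 2 lower in 6A at day 14. These 5 calls rest on each day 14 library: 0 were made without the first 6A, the first WT or the second WT library of day 14, and 1 without the second 6A library. The phosphatases Dusp4 (0.44 ± 0.12, edgeR adjusted p = 0.029) and Dusp5 (0.48 ± 0.13, edgeR adjusted p = 0.031) and the receptor-like inhibitor Il17rd (0.41 ± 0.13, edgeR adjusted p = 0.046) were higher. Spry1, of the same family as Spry4, went the other way, with 49.9 ± 2.38 CPM in 6A and 69.2 ± 3.32 CPM in WT (-0.47 ± 0.12, edgeR adjusted p = 0.021), as did Dusp7 (-0.55 ± 0.17, edgeR adjusted p = 0.040). Of 20 other genes that respond to ERK, 4 were called higher and 3 lower. Without 1 library these 7 were 1 to 8, with 1 without the first 6A or the second WT library of day 14, 2 without the second 6A and 3 without the first WT library, and 4 without the first or the second 6A library of day 0. Lif (0.85 ± 0.15, edgeR adjusted p = 0.002), Fosb (0.55 ± 0.14, 0.015) and Ier3 (0.45 ± 0.13, 0.038) were higher, and Egr3 (-0.57 ± 0.15, 0.025), Etv1 (-0.66 ± 0.18, 0.027) and Ccnd1 (-0.39 ± 0.11, 0.029) were lower, with edgeR adjusted p last in each pair of parentheses. At day 0 edgeR and DESeq2 each called 0 of the 13 inhibitors and 0 of the 20 responsive genes, with 2 and 4 at an unadjusted p under 0.05.

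Genes of the pluripotent states split at day 14. Of 20 other formative and primed genes, 3 were called higher and 4 lower in 6A, and 4 in all were called without the second WT library of day 14. The de novo methyltransferase Dnmt3b (0.68 ± 0.13, edgeR adjusted p = 0.0029), the Nodal co-receptor Tdgf1 (0.64 ± 0.13, edgeR adjusted p = 0.0053) and Pim2 (0.49 ± 0.14, edgeR adjusted p = 0.034) were higher. Sox11 (-0.97 ± 0.12, edgeR adjusted p = 0.00014), Zic2 (-1.16 ± 0.17, edgeR adjusted p = 0.00053) and Grhl2 (-1.13 ± 0.18, edgeR adjusted p = 0.00082) were lower, and like Otx2 the first 2 of them are also expressed in neural tissue. Of 13 naive genes, 6 were called higher and none lower by edgeR, with a list median of 0.55. The calls were 2 to 7 without 1 library, with 2 without the second 6A or the first WT library of day 14. Nr0b1 (0.97 ± 0.14, edgeR adjusted p = 5e-04), Tcl1 (0.81 ± 0.16, edgeR adjusted p = 0.0041) and Tfcp2l1 (0.55 ± 0.11, edgeR adjusted p = 0.0052) had the smallest p.

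At day 0 edgeR and DESeq2 each called 0 of the 13 naive genes, with 2 at an unadjusted p under 0.05 and a list median of -0.07. In the formative and primed list 2 of 20 were lower in 6A at day 0, the Wnt effector Lef1 with 2.08 ± 0.167 CPM in 6A against 9.12 ± 2.08 CPM in WT (-2.14 ± 0.26, edgeR adjusted p = 0.0012) and Pim2 (-0.57 ± 0.13, edgeR adjusted p = 0.044). The count of 2 held in none of the 8 fits that left out 1 library. Pim2, near the threshold at day 0, was thus called lower in 6A at day 0 and higher at day 14. The test of that difference was called (1.07 ± 0.19, edgeR adjusted p = 0.006). Dnmt3b (1.05 ± 0.18, edgeR adjusted p = 0.0043) and Lef1 (1.76 ± 0.33, edgeR adjusted p = 0.0072) were called in the same direction, and Zic2 in the other (-1.14 ± 0.23, edgeR adjusted p = 0.012). Among naive genes, Nr0b1 (1.43 ± 0.18, 0.00077), Esrrb (0.78 ± 0.18, 0.025) and Zfp42 (0.60 ± 0.15, 0.043) were called upward, with the edgeR adjusted p last.

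**Figure D4:**
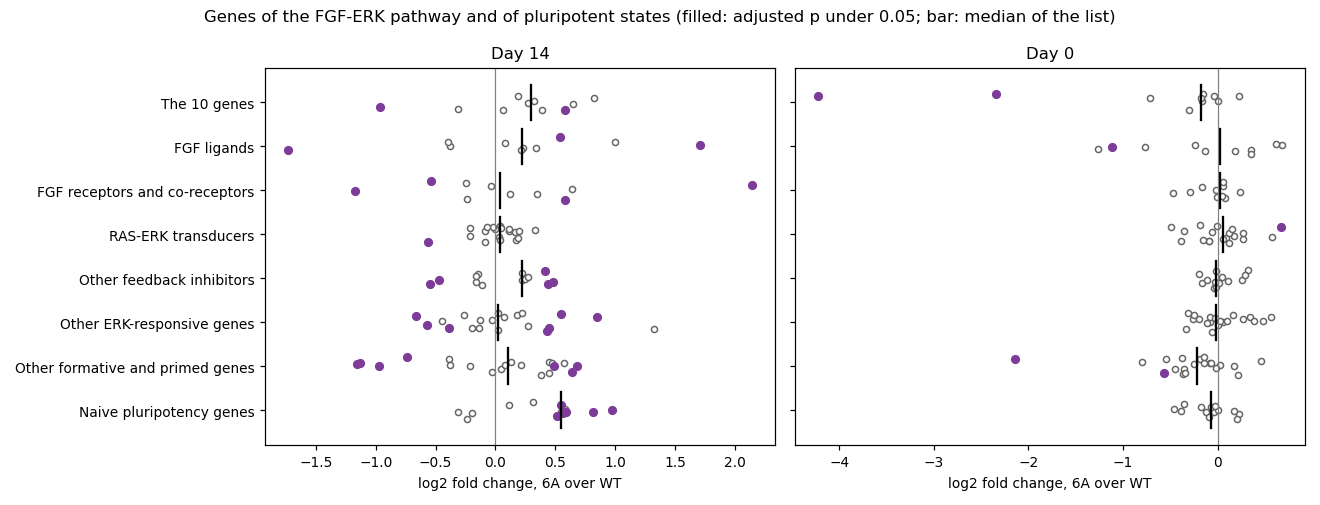
Log2 fold change of 6A over WT for the 10 genes and for the genes of 7 further lists, at day 14 (left) and day 0 (right), with filled points for an edgeR adjusted p under 0.05 and a bar for the median of each list. The scales of the panels differ. The naive genes sit highest at day 14, with a median of 0.55, and at day 0 the medians of the 8 lists lie between -0.22 and 0.06.

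On differentiation all 13 naive genes fell in 6A and in WT. Of the 13 other feedback inhibitors, 7 rose and 1 fell in 6A, and 8 rose and 1 fell in WT, which is the direction of Dusp6 and not of Spry2 or Spry4. Dusp4 rose by 1.91 ± 0.13 in 6A (edgeR adjusted p = 1.4e-08) and by 1.27 ± 0.13 in WT (edgeR adjusted p = 6.6e-07). Of the 10 receptors and co-receptors, 7 rose and 2 fell in 6A, and 5 rose and 2 fell in WT, led by Fgfr3, which rose by 4.42 ± 0.25 in 6A (edgeR adjusted p = 3.2e-09) and by 5.43 ± 0.25 in WT (edgeR adjusted p = 3.5e-10). Of the 20 other ERK-responsive genes, 12 rose and 6 fell in 6A, and 12 rose and 7 fell in WT. The 10 other ligands were even, with 5 up and 5 down in 6A and 4 and 4 in WT, as were the 19 transducers, with 6 up and 7 down in 6A and 5 and 6 in WT.

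Among the other ERK-responsive genes, those with the smallest p went both ways. Fosb rose by 3.84 ± 0.15 in 6A (edgeR adjusted p = 1e-10) and by 3.21 ± 0.15 in WT (edgeR adjusted p = 3.6e-10), as did Fos and Egr2. Ccnd1, which encodes cyclin D1, fell by 2.67 ± 0.11 in 6A (edgeR adjusted p = 1.7e-10) and by 2.22 ± 0.11 in WT (edgeR adjusted p = 7.2e-10), and Myc, which is also induced early, fell in both. Among ligands Fgf17 fell with Fgf4, by 3.70 ± 0.23 in 6A (edgeR adjusted p = 5.9e-09) and by 4.44 ± 0.21 in WT (edgeR adjusted p = 4.3e-10). Of the other formative and primed genes, 12 of 20 fell and 6 rose in 6A, and 11 fell and 6 rose in WT. Sox11 and Cdh2 rose in both genotypes, and Tdgf1, Foxd3 and Lefty2 fell in both.

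Reads that differ between the parental genomes give a second readout, the share of reads from the 129 allele. Of all counts, 29.1% to 31.6% per library were assigned to an allele, and 79.9% to 80.8% of those were 129. The share was above 90% for 8 of the 10 genes, from 92.0% for Pou3f1 (174 reads over the 8 libraries) to 98.9% for Dusp6. Fgf5 and Etv4 stood apart. Fgf5 had 38.2% of 123 reads from 129 (Wilson 95% interval 30.1% to 47.0%), and Etv4 had 52.4% of 1917 reads (50.2% to 54.7%). These intervals pool reads over the 8 libraries and cover counting error only. Fgf4 had 94.6% of 3473 reads and Etv5 had 98.7% of 13765 reads.

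The neighbouring genes were read in the same way. Over up to 5 genes on each side with at least 100 allele reads, a comparison chosen after the values were seen, the median 129 share was 53.6% around Fgf5 and 56.4% around Etv4. Around the other 8 it was between 93.0% (Otx2) and 99.2% (Etv5). Single neighbours varied widely, between 35.2% and 90.1% around Fgf5, 42.2% and 66.4% around Etv4, and 9.87% and 99.5% around Egr4. The median around Fgf5 lay above the pooled interval of Fgf5 itself. At day 14 the Fgf5 interval was 28.4% to 49.6% in 6A and 28.7% to 59.1% in WT, and that of WT held this median. Of 11750 autosomal genes with at least 100 reads, 63.6% had a share above 90% and 32.6% lay between 20% and 80%. Most genes in this hybrid line thus gave few CAST reads, and counts of CAST reads say little for 8 of the 10 genes.

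**Figure D5:**
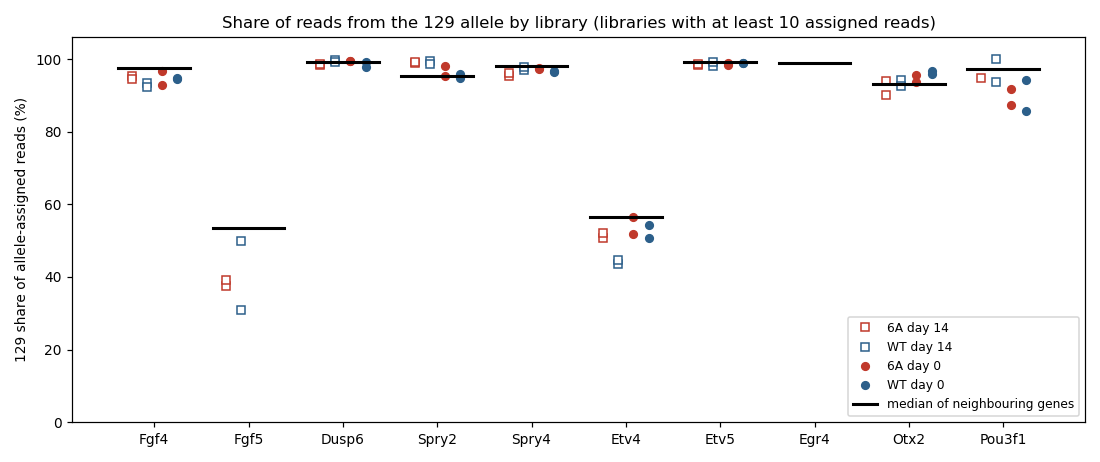
Share of allele-assigned reads from the 129 allele, in percent, for each gene and each library with at least 10 such reads, with a bar for the median share of the neighbouring genes. Egr4 has no library with 10 reads. Fgf5 and Etv4 lie far below the other genes, and so do the bars of their neighbours.

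The ratio of 129 to CAST reads was tested for the 9 genes with at least 10 allele reads per library on average, which leaves out Egr4. By edgeR none of the 9 was called between 6A and WT at day 14 or day 0, with 1 and 0 genes at an unadjusted p under 0.05, where 0.0398% and 0.167% of the 12575 genes tested were called. Fgf5 had 0 allele-assigned reads in 6A at day 0, so its tests against that group could show no difference. Between the days, Spry2 was called in WT, with 4 CAST reads of 422 at day 14 against 31 of 684 at day 0, a 129 share of 99.1% against 95.5% (log2 ratio change 2.25 ± 0.71, edgeR adjusted p = 0.011, where 16.3% of genes were called). In 6A the CAST reads of Spry2 were 5 of 491 at day 14 and 30 of 882 at day 0, which did not pass (1.73 ± 0.68, edgeR adjusted p = 0.056, with 19.2% of genes called). The Y-linked RNA given above was likewise near 0 at day 14 and present at day 0, and its part in the Spry2 ratio was not tested.

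The genes with the most similar pattern over the 8 libraries were found by the root mean square difference of log2 CPM after centring, without scaling. Predicted genes, Riken clones, pseudogenes, microRNAs and small nucleolar RNAs were passed over by name. Nearest to Fgf4 were Tfcp2l1 and Nanog, both at 0.13, which are naive-state factors. Nearest to Etv5 were Tesk2 and Bpnt1 (0.09 each). Dusp6 lay nearest to Camk1 and Lmo4 (0.06 each), Spry2 to Nxf1 and Cuta (0.05 each) and Spry4 to Ruvbl1 (0.06). Otx2 was closest to Acsl6 (0.12) and Erbb3 (0.15), and Pou3f1 to Nthl1 (0.12).

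By this measure Fgf5 and Egr4 had no close match, and counting error at their low counts adds to the distance. The nearest genes to Fgf5 were Gbp2b (0.62) and Lef1 (0.64), and the nearest to Egr4 was Rasal3 (0.35). Lef1 shared with Fgf5 the low level in 6A at day 0 and the higher levels at day 14. The order of the genotypes at day 14 differed. Mean Fgf5 was 7.87 CPM in 6A and 4.44 CPM in WT, and mean Lef1 was 21.4 CPM in 6A and 27.7 CPM in WT. Neither of these day 14 differences was called. None of the 10 genes was among the nearest 2 of another.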

How the data were processed

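RNA was depleted of ribosomal RNA and made into directional paired-end libraries, per the labels' protocols. Per the submitters' processing notes, cutadapt 1.4.2, STAR 2.7.10a and mm10 were used. No counting tool, strand setting, annotation or allele method is named in the labels. The deposited files carry the authors' raw counts per gene for all reads and for reads assigned to CAST or 129.

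Here genes were kept by filterByExpr, scaled by TMM and tested with edgeR 4.0.16 (R 4.3.3) in 1 quasi-likelihood fit of 8 libraries, with 4 residual degrees of freedom, adjusted over all 15458 genes at 0.05. The common biological coefficient of variation was 0.111. Allele ratios were fitted with library and allele terms for the 12575 genes that averaged at least 10 allele reads per library. Replicates of a group differed by 7.56 to 15.9 times counting noise (chi-square per degree of freedom), so no pair was 1 library deposited again, which does not show that the cultures were separate. Alternatives were DESeq2 1.42.0, other scaling, no filter, the compared groups alone, a replicate block, single-allele reads and leaving out each library. Intervals and floors cover counting error only. Scripts were tested on simulated data.

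The 10 genes and the lists were chosen with earlier results of these data known. Named from each list were up to 3 called genes per direction by smallest adjusted p; some of these are summarised by count only, and the nearest patterns of Etv4 are not reported here. Annotation was GENCODE M21 on mm10, which matched 23376 of 24421 symbols (95.72%). Motifs were searched with Python 3.11.15.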

Additional observations from a re-analysis of the deposited data

Results flagged for a closer look

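For 4 of the 10 genes the difference between 6A and WT at day 14 was called different from that at day 0 by edgeR, where 4.74% of all tested genes were called. The Spry4, Egr4 and Otx2 calls were each lost in 3 of the 8 fits that left out 1 library, and the Fgf5 call in none of them. Fgf5 differed by 5.04 on the log2 scale (adjusted p = 0.0015), being higher in both 6A libraries at day 14 and lower in both at day 0. Egr4 differed by 2.99 (adjusted p = 0.018), with 53 counts in 6A against 34 in WT at day 14 and 9 in 6A against 39 in WT at day 0. Spry4 differed by 0.76 (adjusted p = 0.012), with the 6A libraries higher at day 14 and lower at day 0. Otx2 differed by -0.96 (adjusted p = 0.013), lower in both 6A libraries at day 14 and overlapping with WT at day 0.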

How the results depend on the processing

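Leaving out a library leaves a lone sample in its group, which is then assumed to vary like the others, and the cause of the changes below was not tested. Of the 10 genes, the number called at day 0 (2) was 1 with DESeq2, 0 with only the compared groups, 0 with CAST reads (6 genes tested), 0 with 129 reads (9 tested) and 0 to 3 without 1 library. The genes called there among all (244) were 459 with no filter, 23 with only the compared groups, 466 with a replicate block, 21 with CAST and 30 with 129 reads, and 32 to 567 without 1 library. At day 14 the 2 called were 4 with DESeq2's size factors, 5 with no filter, 5 with the replicate block, 0 with CAST reads, 1 with 129 reads and 2 to 4 without 1 library, and the 2109 genes called in all were 141, 720 and 982 to 2759 under the last 3. DESeq2 called 3 of the 13 other feedback inhibitors at day 14 (5 by edgeR), 4 of the 20 other ERK-responsive genes (7) and 0 of the 19 transducers (1). In the genotype by day difference, the called genes of the receptor list (2), the ERK-responsive list (3) and the naive list (3) were 0 to 2, 0 to 3 and 1 to 5 without 1 library. There, of the 10 genes, the 4 called were 0 with CAST reads, 1 with 129 reads and 1 to 4 without 1 library, and the 733 in all were 11, 118 and 280 to 835. On differentiation, CAST reads called 3931 genes in WT (11630 with all reads), 3823 in 6A (11119), and 5 of the 10 genes in 6A (6 tested). For allele ratios, the 1 gene called in WT and the 0 in 6A were each 0 to 1 without 1 library. Signs turned, none in a called value, for Etv5 at day 0 (0.08) and Etv4 at day 14 (-0.09) with CAST reads, and for Dusp6 (0.05), Spry2 (0.03) and Otx2 (0.38) at day 0 and Pou3f1 in the genotype by day difference (-0.01) with 129 reads. Without 1 library Otx2 at day 0 ran from -0.16 to 0.13, Etv4 at day 14 from -0.17 to 0.27 and Egr4 on differentiation in WT from -0.51 to 0.33. Spry4 at day 14 was not called with CAST reads (1.53, adjusted p = 0.15), nor Otx2 with 129 reads (-0.46, adjusted p = 0.46). Same-numbered libraries did not deviate together in every pair of groups (correlations 0.00 to 0.24), so the block is only a hint. Depth limits Fgf5 and Egr4 at day 0, with 2 and 9 counts in 6A.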
